A study of Mus musculus with 12 samples.

Results

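The enzymes that take glucose to pyruvate and lactate, and pyruvate through the citric acid cycle, were measured in mouse abdominal macrophages as a set of 44 genes. The set held 19 genes of glycolysis, 24 genes of pyruvate dehydrogenase and the citric acid cycle, and Hif1a, a transcription factor that acts on many glycolytic genes. Members were chosen by enzyme name, with earlier results of these data known, from the 22907 gene symbols matched to the probes of the array, and the brightest usable probe stood for each gene. All 44 members were among the 13280 genes tested, and 43 of them were well above background on all 12 arrays. Pfkm was above background on 11 arrays and was dim on 1 array of WT cells given LPS. The series profiled 1-colour Agilent arrays of total RNA from macrophages of C57/BL6 mice that were WT or GPR15 KO, GPR15 being a G protein-coupled receptor. The cells of all groups were cultured in DMEM with serum. They were kept for 4 h with PBS, or with 100 ng/ml of LPS (lipopolysaccharide of Gram-negative bacteria, a strong stimulus of macrophages). This gave 4 groups of 3 arrays, named WT PBS, WT LPS, KO PBS and KO LPS. The origin of the KO allele, the purification of the macrophages and the number of mice behind the replicates are not given in the sources used here. If the replicates shared mice, the p-values measure only technical spread.

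Several features of the whole series bear on the members. Gpr15 was well above background on 0 of 12 arrays, so the KO label could not be checked by its transcript. Xist, made from the inactive X chromosome of females, was above background on 6 of 6 WT arrays and 0 of 6 KO arrays, and the Y-linked Ddx3y on 0 of 6 and 6 of 6. Genotype and sex of the cells therefore cannot be told apart, and Idh3g, Pdha1, Pdk3 and Pgk1 are X-linked. The 12 arrays lay on 2 slides. The first carried WT arrays of both treatments with KO PBS replicates 1 and 2, and the second carried the KO LPS arrays with KO PBS replicate 3. All 12 macrophage markers on the array were above background on all 12 arrays, and their summed level, in units of the array's 75th percentile, ran from 701 to 806 over all arrays. With LPS, 8 of these 12 markers fell and 2 rose in both genotypes, with medians of -0.46 in WT and -0.49 in KO. Markers of other cells were present too. The 10 B-cell markers summed to 144 to 183 in WT PBS and 73.7 to 88.5 in WT LPS, and to 119 to 125 and 59.6 to 60.8 in the KO groups. The mast-cell markers summed to 111 to 150 in WT PBS and 241 to 263 in WT LPS, and to 99.1 to 116 and 188 to 205 in the KO groups. Such sums add signals that are not on the log scale, so the brightest genes weigh most. Of the 8 mast-cell markers measured, 3 rose and 2 fell with LPS in WT, and 3 rose and 1 fell in KO. Their median changes were 0.20 and 0.22. Over all genes 33.7% rose and 31.0% fell in WT, and 35.1% and 32.0% in KO. The 7 T-cell markers summed to 18.5 to 25.9 with PBS and 10.7 to 12.1 with LPS, and the 5 dendritic-cell markers to 175 to 209 and 256 to 295. Of the T-cell markers, 0 rose and 5 fell with LPS in WT, and 1 rose and 2 fell in KO, with medians of -0.25 and -0.05. The 7 neutrophil markers measured summed to 162 to 197 with PBS and 196 to 209 with LPS. Of these, 5 were above background on all 12 arrays, and 2 were called higher in KO in each condition (S100a9 and Camp in PBS, S100a9 and Elane after LPS). Other lists differed by genotype too. Of the 10 B-cell markers 6 were lower in KO in PBS and 5 after LPS. Of the 12 macrophage markers 3 were higher in PBS, and 4 were higher and 1 lower after LPS. Over all genes 8.06% were higher and 6.05% lower in PBS, and 20.0% and 19.5% after LPS. The neutrophil markers Ngp and Ltf, the dendritic-cell markers Xcr1 and Itgae and 6 of 9 mesothelial and stromal markers were above background on 0 arrays. The part of these cells in the members' changes was not tested, and fewer cells of a type and less RNA per cell cannot be told apart in such samples.

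Glycolysis splits glucose into pyruvate, with control points at hexokinase, phosphofructokinase and pyruvate kinase, and lactate dehydrogenase can turn the pyruvate into lactate. The pyruvate dehydrogenase complex instead passes pyruvate to the mitochondrial citric acid cycle as acetyl-CoA. Macrophages exposed to LPS are known for raised glycolysis and for a cycle that is interrupted around isocitrate and succinate, with itaconate made from aconitate, and HIF-1 is a known driver of the glycolytic part.

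With LPS, more members fell than rose in both genotypes, and the rises were few but included the largest change. In WT, 8 of 44 members rose (18.2%; 33.7% of all 13280 genes rose) and 19 fell (43.2%; 31.0% of all genes fell), by limma with Benjamini-Hochberg adjusted p below 0.05. In all, 27 members were called, when 64.7% of all genes were. In KO, 7 rose (15.9%, against 35.1% of all genes) and 18 fell (40.9%, against 32.0%), so 25 were called, when 67.0% of all genes were. The KO LPS arrays share their slide with KO PBS replicate 3 alone. With the slide as a term of the fit, 8 members rose and 15 fell in KO, when 27.7% and 25.3% of all genes did. Of the 25 calls, 5 were lost. Quantile normalization gave 6 rises and 24 falls in KO. The median change, on the log2 scale, was -0.13 over the members and 0.03 over all genes in WT, and -0.12 and 0.04 in KO. The glycolytic members and those of the cycle did not part into opposite directions. Of 19 glycolytic members 4 rose and 9 fell in WT and 4 rose and 8 fell in KO, while of 24 members of pyruvate dehydrogenase and the cycle 3 rose and 10 fell in WT and 2 rose and 10 fell in KO. Changes of at least 1.5-fold were called for 4 risers and 9 fallers in WT and for 4 and 8 in KO. Between WT and KO the calls were shared for 6 risers and 15 fallers, and 0 members were called in opposite directions. The shares of all genes for these counts were not computed, so the counts do not set the members apart. Centring each array on the median gene moved the WT split to 12 rises and 17 falls, and quantile normalization gave 8 rises and 29 falls. With the replicate number as a block, a pairing taken from the correlation of the WT arrays, 10 members rose and 25 fell there, with 5 rises in place of 3 among pyruvate dehydrogenase and the cycle. That count of 3 was 6 without WT LPS replicate 3 and 5 without WT PBS replicate 2 or KO PBS replicate 3.

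**Figure D1:**
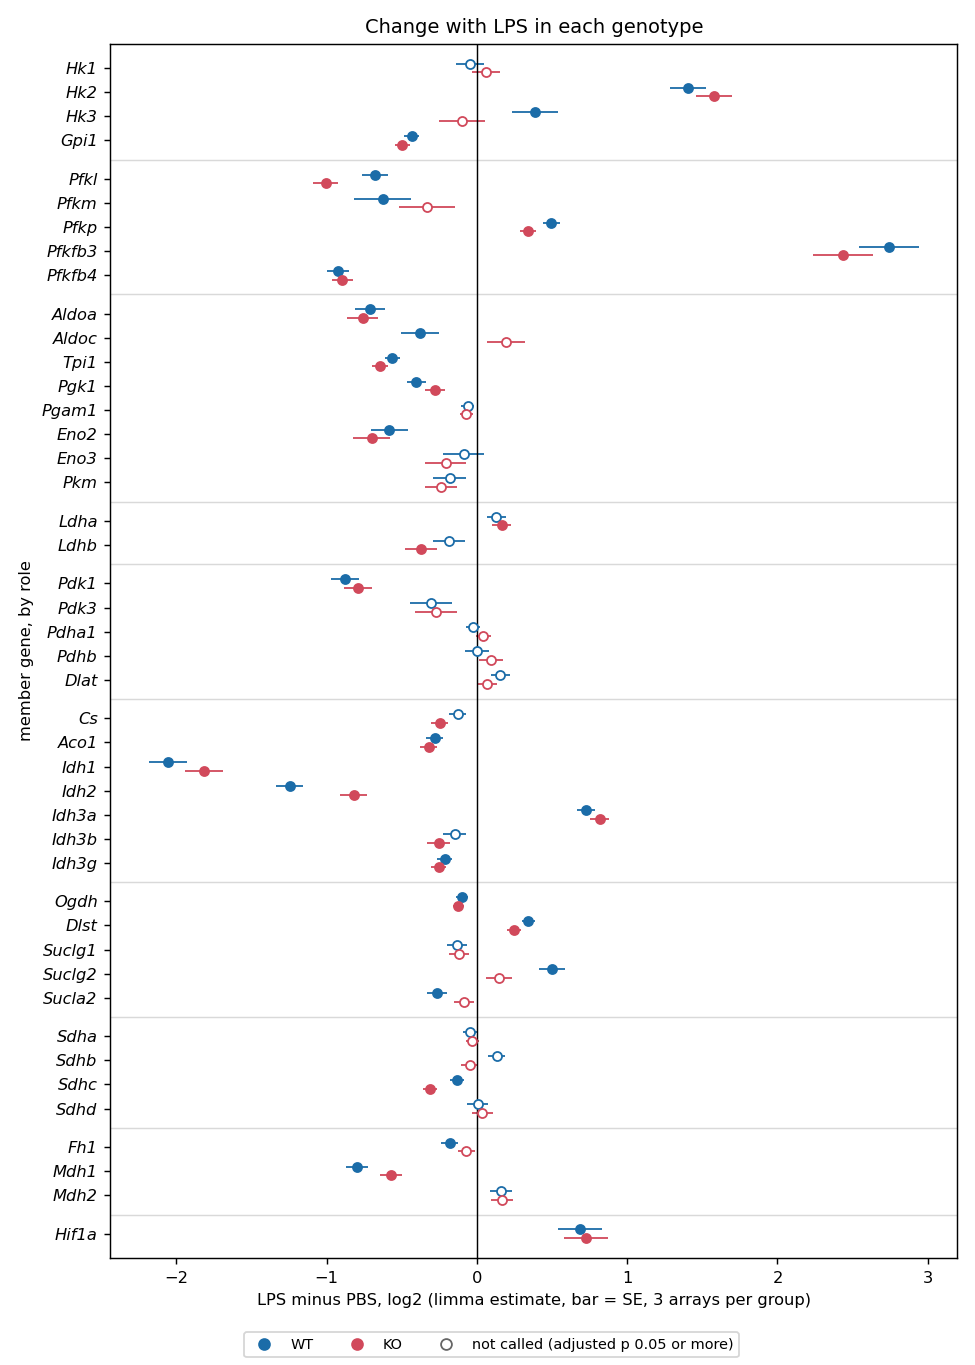
Change with LPS of the 44 members, ordered by role from glucose phosphorylation to Hif1a. Each point is the limma estimate of LPS minus PBS on the log2 scale with its SE (3 arrays per group), blue for WT and red for KO, filled where called at an adjusted p below 0.05. Pfkfb3 and Hk2 lie far to the right and Idh1 and Idh2 far to the left in both genotypes, while the 4 succinate dehydrogenase subunits lie close to 0.

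At the first step of glycolysis the hexokinases, which trap glucose in the cell as glucose 6-phosphate, differed from each other. Levels are given from here on as log2 of the signal relative to the array's 75th percentile, replicates 1 to 3 in order, and changes as log2 differences ± SE with 3 arrays per group. Hk2, the inducible hexokinase bound to mitochondria, stood at 2.00, 2.20 and 1.62 in WT PBS and 3.35, 3.42 and 3.25 in WT LPS. In KO it stood at 1.52, 1.74 and 1.73 with PBS and 3.18, 3.31 and 3.22 with LPS. The lowest LPS array was above the highest PBS array in both genotypes, with WT PBS replicate 3 below its 2 partners. The rise was 1.41 ± 0.12 in WT (2.65-fold, limma adjusted p = 7.6e-07) and 1.58 ± 0.12 in KO (2.98-fold, adjusted p = 3.5e-07). Hk1, the hexokinase of most tissues, moved by -0.04 ± 0.09 in WT and 0.06 ± 0.09 in KO, and neither value passed the test. Hk3, the hexokinase of myeloid cells, was called higher in WT (0.39 ± 0.15, adjusted p = 0.042) and its value in KO was -0.10 ± 0.15. Its WT groups overlapped, and the call was lost without any 1 of 8 arrays: WT PBS replicate 3, WT LPS replicate 1 or 2, or any KO array other than KO PBS replicate 3. With quantile normalization it was 0.14 (adjusted p = 0.42). Gpi1, which turns glucose 6-phosphate into fructose 6-phosphate, fell by 0.43 in WT and by 0.50 in KO (adjusted p = 1e-05 and 3.9e-06).

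At the phosphofructokinase step, which commits sugar to glycolysis, the regulator Pfkfb3 rose most of all members and the enzyme subunits moved in different directions. Pfkfb3 makes fructose 2,6-bisphosphate, an activator of phosphofructokinase. Its level was 3.95, 4.06 and 3.19 in WT PBS and 6.63, 6.69 and 6.11 in WT LPS. The KO levels were 3.75, 3.54 and 3.66 with PBS and 6.10, 6.03 and 6.13 with LPS. All 6 LPS arrays were above all 6 PBS arrays, and WT replicate 3 was the lowest of its group with and without LPS. The rise was 2.74 ± 0.20 in WT (6.69-fold, limma adjusted p = 2e-07) and 2.43 ± 0.20 in KO (5.4-fold, adjusted p = 6.8e-07). Pfkfb4, another member of the same bifunctional kinase and phosphatase family, went the other way. It stood at 1.17, 1.1 and 1.21 in WT PBS and 0.31, 0.32 and 0.07 in WT LPS, and at 0.91, 1.04 and 0.89 in KO PBS and 0.04, 0.06 and 0.05 in KO LPS. The LPS arrays were all below the PBS arrays, and the change was -0.93 ± 0.07 in WT (adjusted p = 3.4e-07) and -0.89 ± 0.07 in KO (adjusted p = 5.7e-07). Pfkl, the liver-type subunit of phosphofructokinase, stood at 0.14, 0.23 and 0.22 in WT PBS and -0.46, -0.45 and -0.53 in WT LPS, and at 0.11, 0.38 and 0.02 in KO PBS and -0.87, -0.82 and -0.82 in KO LPS. It fell by 0.68 in WT and by 1.01 in KO, without overlap (adjusted p = 1.8e-05 and 7.7e-07). Pfkp, the platelet-type subunit, rose by 0.50 in WT and 0.34 in KO (adjusted p = 6.8e-06 and 0.00017). Pfkm, the muscle-type subunit, was called lower in WT (-0.63 ± 0.19, adjusted p = 0.012), a call lost without WT LPS replicate 1, its dim array, and with normexp background correction (-0.17, adjusted p = 0.12). The value in KO was -0.33 ± 0.19.

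HIF-1 binds the letters ACGTG or GCGTG, the core of the hypoxia response element, so the 250 bases before the starts of the most strongly changed members were read for them on both strands. The sequences are those of RefSeq on GRCm38.p6, written 5′ to 3′ along the gene's strand and ending next to the start of the transcript, with matches in capitals and overlapping matches merged and counted once. Those of the largest risers are shown here because Hif1a is a member. Both genes lie on the minus strand, Hk2 at chr6:82774455-82774704 and Pfkfb3 at chr2:11502091-11502340.
Hk2: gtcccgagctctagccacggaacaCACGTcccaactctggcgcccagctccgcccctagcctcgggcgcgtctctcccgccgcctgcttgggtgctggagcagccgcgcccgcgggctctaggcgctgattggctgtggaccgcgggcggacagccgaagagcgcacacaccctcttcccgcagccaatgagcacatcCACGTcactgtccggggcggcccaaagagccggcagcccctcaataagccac
Pfkfb3: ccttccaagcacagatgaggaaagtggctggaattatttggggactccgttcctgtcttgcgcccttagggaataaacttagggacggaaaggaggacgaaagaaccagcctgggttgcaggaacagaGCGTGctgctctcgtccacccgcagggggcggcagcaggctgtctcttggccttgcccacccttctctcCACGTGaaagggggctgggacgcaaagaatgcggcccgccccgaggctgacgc
Both stretches held 2 matches, and one of the Pfkfb3 matches is the palindrome CACGTG, which is also an E-box. The other listed start of Pfkfb3, at chr2:11553930-11554179, held 1 match. Such letters are common. Of the 27025 genes with a listed promoter 41.5% held a match, and of the 42 members with one 32 did (Idh3a and Sdhc had no entry). A gene counted if any of its listed starts held a match, and 10 members had 2 or more starts. The share covers all listed genes, whether or not they were tested here, so it is no matched background, and the difference was not tested. A match was found for 5 of 7 members that rose in WT, 13 of 18 that fell and 14 of 17 that were not called. A match is a description of the letters and shows no binding.

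In lower glycolysis, from aldolase to pyruvate kinase, 5 of 8 members fell and 0 rose in WT, and 4 fell and 0 rose in KO. Over all genes 31.0% fell and 33.7% rose in WT, and 32.0% and 35.1% in KO. At unadjusted p below 0.05 in limma, 0 of them rose in either genotype as well. Aldoa, the main aldolase, fell by 0.71 in WT and 0.76 in KO. Tpi1, which interconverts the 2 triose phosphates, fell by 0.56 and 0.64, and Pgk1, which makes the first ATP of the pathway, by 0.40 and 0.28. Eno2, the neuron-type enolase, fell by 0.58 and 0.70. The adjusted p-values of these 4 members ran from 1.2e-06 to 0.0012 in WT and from 4.5e-07 to 0.003 in KO. The call for Pgk1 in KO was lost with the slide as a term of the fit (-0.19 ± 0.09, adjusted p = 0.09). Aldoc, the brain-type aldolase, was called lower in WT (-0.38 ± 0.13, adjusted p = 0.02), a call lost without WT PBS replicate 3 or WT LPS replicate 1, and its value in KO was 0.19 ± 0.13. The remaining enzymes of this stretch did not pass the test in either genotype. Pgam1, the phosphoglycerate mutase, gave -0.06 ± 0.04 in WT and -0.07 ± 0.04 in KO, and Eno3, the muscle-type enolase, gave -0.09 ± 0.14 and -0.21 ± 0.14. Pkm, which makes pyruvate in the last step, gave -0.18 ± 0.11 and -0.24 ± 0.11. In the WT fit with the replicate block, Pkm was called lower (-0.18 ± 0.06, adjusted p = 0.03). Quantile normalization called Pkm lower in both genotypes (-0.45 and -0.40, limma adjusted p = 0.0011 and 0.0024), and Pgam1 too (-0.26 and -0.19). In KO, Pkm was also called lower with normexp correction (-0.29, adjusted p = 0.042), the mean of all probes or the KO groups alone. A second Pkm probe gave -0.27 ± 0.12 in WT and was called lower in KO (-0.39 ± 0.12, adjusted p = 0.016). A second Pgam1 probe gave -0.07 ± 0.05 in WT and was also called lower in KO (-0.13 ± 0.05, limma adjusted p = 0.037).

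The lactate dehydrogenase genes changed little. Ldha, whose subunit favours lactate formation, gave 0.13 ± 0.06 in WT, which did not pass the test. In KO it was called higher (0.17 ± 0.06, limma adjusted p = 0.039). The direction depended on the scaling. Quantile normalization gave -0.03 in KO and called Ldha lower in WT (-0.14, adjusted p = 0.036), while median centring called it higher in WT (0.17, adjusted p = 0.034). The KO call was also lost with the mean of all probes (0.11) and without WT LPS replicate 1 or any 1 of KO PBS replicates 1 and 3 and the 3 KO LPS arrays. Ldhb, whose subunit favours pyruvate, gave -0.19 ± 0.11 in WT (called lower with the replicate block, -0.19 ± 0.07, adjusted p = 0.047) and fell by 0.37 in KO (adjusted p = 0.0093). The KO call was lost with the slide as a term (-0.18 ± 0.13, adjusted p = 0.26).

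Among the genes of pyruvate dehydrogenase and its kinases, 1 of 5 passed the test with LPS in each genotype. Over all genes 64.7% did in WT and 67.0% in KO. Pdk1, a kinase that switches the complex off, stood at -0.36, -0.39 and -0.41 in WT PBS and -1.41, -1.23 and -1.14 in WT LPS. In KO its levels were -0.78, -0.75 and -0.62 with PBS and -1.67, -1.35 and -1.50 with LPS. The LPS arrays lay below the PBS arrays of the same genotype, and the change was -0.88 ± 0.10 in WT (1.84-fold, limma adjusted p = 6e-06) and -0.79 ± 0.10 in KO (1.73-fold, adjusted p = 1.6e-05). The probes of Pdk1 disagreed. A second probe fell in both genotypes (-0.93 ± 0.15 and -0.69 ± 0.15), and another gave -0.07 ± 0.15 in WT and rose in KO by 0.46 ± 0.15. Pdk3, a kinase of the same family, gave -0.31 ± 0.14 in WT, called lower with the replicate block (-0.31 ± 0.10, adjusted p = 0.029), and -0.27 ± 0.14 in KO. The subunits of the complex itself, Pdha1 and Pdhb of the decarboxylase and Dlat of the acetyltransferase core, gave -0.03, 0.00 and 0.16 in WT and 0.04, 0.10 and 0.07 in KO. Dlat was called higher in WT with quantile normalization (0.16, limma adjusted p = 0.045), median centring, the mean of all probes, no trend or the slide as a term. In KO it was called higher with the mean of all probes. A second Dlat probe gave 0.18 ± 0.09 in WT and was called higher in KO (0.24 ± 0.09, adjusted p = 0.037). Quantile normalization called Pdha1 and Pdhb lower in WT (-0.125 and -0.21).

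The widest spread of the cycle was at isocitrate, where the NADP-linked enzymes fell and a subunit of the NAD-linked enzyme rose. Of 7 members at the citrate and isocitrate steps, 1 rose and 4 fell in WT and 1 rose and 6 fell in KO, when 31.0% and 32.0% of all genes fell. Idh1, the cytosolic NADP-linked isocitrate dehydrogenase, stood at -1.46, -1.47 and -1.52 in WT PBS and -3.67, -3.41 and -3.53 in WT LPS. The KO levels were -1.46, -1.29 and -1.43 with PBS and -3.05, -3.47 and -3.11 with LPS. All 6 LPS arrays were below all 6 PBS arrays. The change was -2.06 ± 0.13 in WT (4.16-fold, limma adjusted p = 4.5e-08) and -1.82 ± 0.13 in KO (3.52-fold, adjusted p = 1.6e-07), the largest fall of any member with this processing. Normexp background correction gave -1.17 in WT, no further than Idh2 (-1.17), and -1.11 in KO. A second Idh1 probe, near background, gave 0.52 ± 0.61 in WT and -1.85 ± 0.61 in KO, and the mean of both probes was -0.77 in WT, against -1.43 for Idh2. Idh2, the mitochondrial NADP-linked enzyme, stood at 1.22, 1.1 and 1.36 in WT PBS and -0.07, -0.08 and 0.10 in WT LPS. In KO it stood at 1.20, 1.28 and 1.19 with PBS and 0.33, 0.29 and 0.59 with LPS. No LPS array reached a PBS array in either genotype. The change was -1.25 ± 0.09 in WT (2.37-fold, adjusted p = 2e-07) and -0.82 ± 0.09 in KO (1.77-fold, adjusted p = 8.1e-06). Idh3a, the catalytic subunit of the NAD-linked enzyme, stood at 1.36, 1.5 and 1.32 in WT PBS and 2.16, 2.13 and 2.07 in WT LPS. In KO it stood at 1.31, 1.28 and 1.18 with PBS and 2.03, 2.16 and 2.03 with LPS. The groups were well apart, and the rise was 0.73 ± 0.06 in WT (1.66-fold, adjusted p = 7.3e-07) and 0.82 ± 0.06 in KO (1.76-fold, adjusted p = 3.3e-07). The regulatory subunits did not rise. Idh3g fell by 0.21 in WT and 0.25 in KO, and Idh3b gave -0.15 ± 0.08 in WT (called with the replicate block, -0.15 ± 0.04, adjusted p = 0.017) and fell by 0.25 in KO, a call lost without KO PBS replicate 1 and with the slide as a term. Cs, citrate synthase, gave -0.13 ± 0.06 in WT (called with the replicate block, -0.13 ± 0.04, adjusted p = 0.022) and fell by 0.25 in KO, a call lost with the slide as a term (-0.10 ± 0.05, adjusted p = 0.098). A second Cs probe gave 0.05 ± 0.04 in WT and 0.02 ± 0.04 in KO, and the mean of both was -0.11 in KO. Aco1, the cytosolic aconitase that also acts as an iron sensor, fell by 0.28 in WT and 0.32 in KO.

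The stretches before the starts of the members with the largest falls are given for comparison with those of Hk2 and Pfkfb3. Both lie on the minus strand of GRCm38.p6 in the RefSeq table, Idh1 at chr1:65179143-65179392 and Idh2 at chr7:80115351-80115600, and capitals mark the same letters.
Idh1: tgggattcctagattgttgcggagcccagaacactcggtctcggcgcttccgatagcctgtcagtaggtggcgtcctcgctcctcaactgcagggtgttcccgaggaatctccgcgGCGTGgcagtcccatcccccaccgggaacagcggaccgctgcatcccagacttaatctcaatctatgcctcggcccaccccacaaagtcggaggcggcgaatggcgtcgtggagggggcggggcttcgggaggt
Idh2: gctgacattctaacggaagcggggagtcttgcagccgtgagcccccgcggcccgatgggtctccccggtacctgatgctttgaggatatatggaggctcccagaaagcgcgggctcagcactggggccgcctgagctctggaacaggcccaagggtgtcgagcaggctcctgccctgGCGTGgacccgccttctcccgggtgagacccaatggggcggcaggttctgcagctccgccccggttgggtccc
Both held 1 match, and the other listed Idh1 start held 0.

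**Figure D2:**
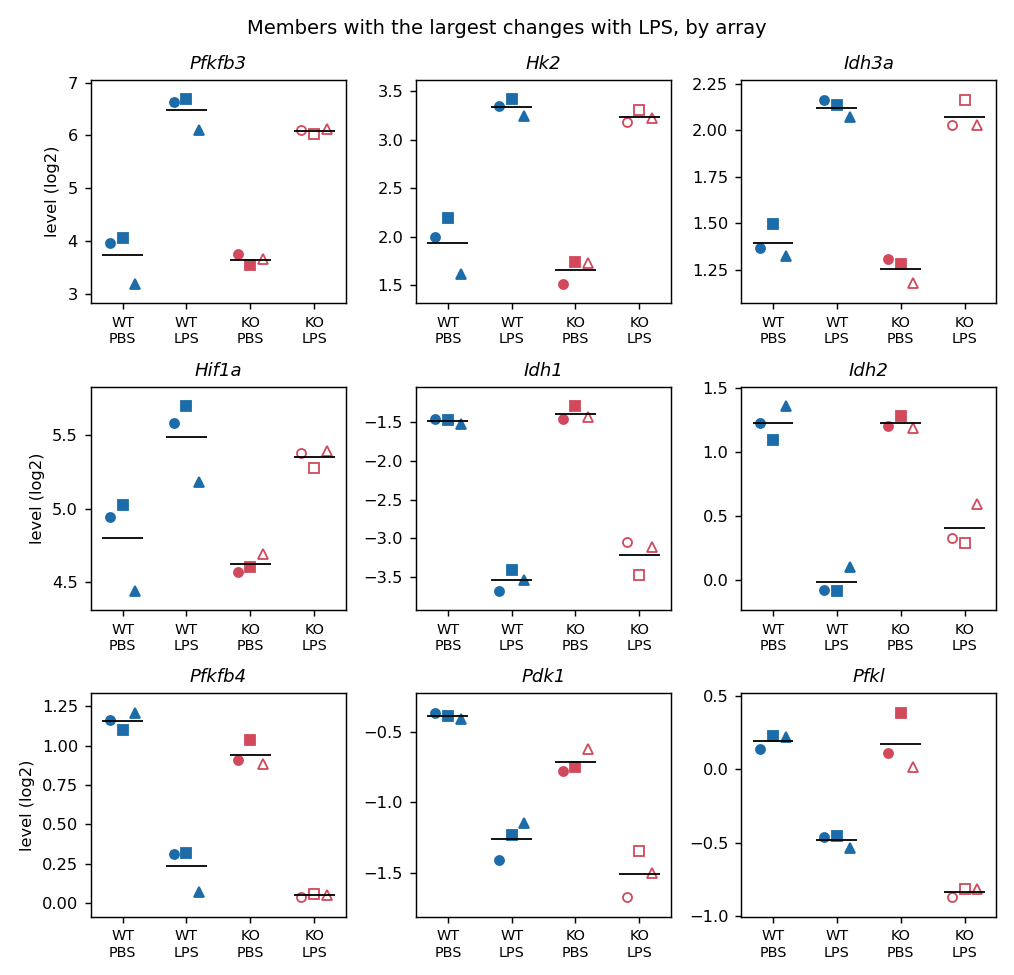
Levels of 9 members on each of the 12 arrays, as log2 of the signal relative to the array's 75th percentile. Blue is WT and red is KO. Circles, squares and triangles are replicates 1, 2 and 3, open symbols are arrays of the second slide, and lines are group means. The LPS arrays are above the PBS arrays for Pfkfb3, Hk2 and Idh3a and below them for Idh1, Idh2, Pfkfb4 and Pfkl in both genotypes, and WT replicate 3 stands low for Pfkfb3, Hk2 and Hif1a.

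Past isocitrate the changes were smaller. Dlst, the succinyltransferase core of the oxoglutarate dehydrogenase complex, rose by 0.34 in WT and 0.25 in KO (limma adjusted p = 3.3e-05 and 0.00046), and by 0.13 and 0.11 with quantile normalization. Ogdh, the first enzyme of that complex, was called lower by 0.10 in WT and 0.12 in KO. The WT call was lost in 10 of the 12 fits that left out 1 array, all but those without WT LPS replicate 3 or KO PBS replicate 3, and the KO call without KO LPS replicate 2 and with the slide as a term. Both were lost with the mean of all probes (-0.08 and -0.08). The subunits of succinyl-CoA synthetase, which makes GTP or ATP, differed. Suclg2, of the GTP form, stood at -0.97, -0.95 and -1.04 in WT PBS and -0.46, -0.45 and -0.55 in WT LPS. In KO it stood at -0.97, -0.91 and -1.24 with PBS and -0.95, -0.91 and -0.81 with LPS. The WT groups were apart and the KO groups overlapped. The rise in WT was 0.50 ± 0.09 (adjusted p = 0.00028) and the value in KO was 0.15 ± 0.09. The probes of Suclg2 differed in KO. A dim probe was called higher there (0.46 ± 0.17, limma adjusted p = 0.031) and gave 0.43 ± 0.17 in WT. Another gave 0.25 ± 0.16 in KO and 0.56 ± 0.16 in WT. With the mean of all probes Suclg2 was called higher in KO. Sucla2, of the ATP form, stood at 0.04, 0.04 and 0.10 in WT PBS and -0.20, -0.18 and -0.25 in WT LPS. In KO it stood at 0.11, 0.11 and 0.30 with PBS and 0.07, 0.03 and 0.16 with LPS. It fell by 0.27 in WT (adjusted p = 0.0031) without overlap, and the KO groups, which overlapped, gave -0.09 ± 0.07. With the slide as a term the KO change was called for both, at 0.34 ± 0.08 for Suclg2 and -0.22 ± 0.07 for Sucla2. Suclg1, the subunit common to both forms, gave -0.13 ± 0.07 in WT (called with the replicate block, -0.13 ± 0.05, adjusted p = 0.041) and -0.12 ± 0.07 in KO.

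Succinate dehydrogenase, which is both a cycle enzyme and complex II of the respiratory chain, moved little. The log2 changes of its 4 subunits ran from -0.13 to 0.13 in WT and from -0.31 to 0.04 in KO. Sdhc, a membrane anchor, was called lower in both genotypes (by 0.13 and 0.31, limma adjusted p = 0.027 and 0.00011), and the WT call was lost without WT PBS replicate 1 or 2 or WT LPS replicate 2 or 3, and with median centring (-0.09). Sdha and Sdhb, which carry the flavin and the iron-sulfur clusters, gave -0.05 and 0.13 in WT and -0.03 and -0.05 in KO, and Sdhd, the other anchor, gave 0.01 and 0.04. A second Sdha probe gave -0.04 ± 0.08 in WT and was called lower in KO (-0.23 ± 0.08, limma adjusted p = 0.024). A second Sdhb probe was called higher in WT (0.17 ± 0.06, adjusted p = 0.031) and gave -0.03 ± 0.06 in KO. With the replicate block Sdhb was called higher in WT (0.13 ± 0.03, adjusted p = 0.014). At the end of the cycle, Mdh1, the cytosolic malate dehydrogenase of the malate-aspartate shuttle, stood at 3.17, 3.03 and 3.19 in WT PBS and 2.30, 2.38 and 2.32 in WT LPS. Its KO levels were 3.16, 3.15 and 3.45 with PBS and 2.69, 2.65 and 2.71 with LPS. It fell without overlap by 0.80 in WT and 0.57 in KO (adjusted p = 1.7e-06 and 3.3e-05). Mdh2, its mitochondrial counterpart, gave 0.16 ± 0.08 in WT (called higher with the replicate block, 0.16 ± 0.05, adjusted p = 0.021) and 0.17 ± 0.08 in KO. Fh1, fumarase, fell by 0.18 in WT (adjusted p = 0.014) and gave -0.07 ± 0.06 in KO.

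Hif1a rose in both genotypes. It stood at 4.94, 5.02 and 4.44 in WT PBS and 5.58, 5.70 and 5.18 in WT LPS, and at 4.57, 4.60 and 4.69 in KO PBS and 5.38, 5.28 and 5.39 in KO LPS. The LPS and PBS arrays did not overlap within a genotype, and replicate 3 was lower than its partners in both WT groups (-0.54 with PBS and -0.46 with LPS against the mean of replicates 1 and 2). The rise was 0.69 ± 0.15 in WT (1.61-fold, limma adjusted p = 0.0014) and 0.73 ± 0.15 in KO (1.66-fold, adjusted p = 0.00096), and the WT rise was 0.43 with quantile normalization (adjusted p = 0.014). The same WT arrays were low for Pfkfb3 (-0.82 and -0.55), Hk3 (-0.63 and -0.30), Hk2 (-0.48 and -0.14) and Pkm (-0.38 and -0.18). They were also low for Pdhb (-0.26 and -0.23), which is not a glycolytic member. Other members stood high on them, among these Pfkm (0.37 and 0.30), Ldhb (0.19 and 0.22), Idh2 (0.20 and 0.18) and Idh3b (0.19 and 0.18). The 6 red-cell markers measured, mostly globins, summed to 162 and 155 in WT replicate 3 with PBS and LPS, against 447 to 573 in replicates 1 and 2. The part of the latter in the former was not tested.

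Genes around the pathway, taken from lists made by function, gave rises and falls alike. Their counts stand against 33.7% of all genes that rose and 31.0% that fell in WT, and 35.1% and 32.0% in KO. Of 8 other glycolysis enzymes measured, 2 rose and 5 fell in WT and 3 rose and 5 fell in KO. Pfkfb2, the heart-type relative of Pfkfb3, fell by 0.95 and 0.60, and Pfkfb1, the liver-type relative, by 0.76 and 1.00, so Pfkfb3 was the one gene of this family of 4 that rose. Eno1, the main enolase, fell by 0.47 and 0.17. Adpgk, a glucokinase that uses ADP, rose by 0.76 and 0.86. Of 8 transporters of glucose and monocarboxylates, 3 rose and 1 fell in WT and 3 rose and 2 fell in KO. Slc2a1, the glucose carrier GLUT1, rose by 0.50 in WT and 0.82 in KO, and Slc16a1, the lactate carrier MCT1, by 1.54 and 1.63. Slc16a3, the lactate exporter MCT4, fell by 1.65 and 0.80. Bsg, the chaperone of both carriers, gave -0.10 ± 0.07 in WT and fell by 0.41 in KO. Slc2a6, a lysosomal hexose carrier, rose by 0.69 in WT and gave 0.16 ± 0.08 in KO.

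The pentose phosphate pathway, which branches off at glucose 6-phosphate and supplies NADPH, had more falls than rises. Of its 9 enzymes 1 rose and 5 fell in WT and 1 rose and 6 fell in KO, when 31.0% and 32.0% of all genes fell. H6pd, its entry enzyme in the endoplasmic reticulum, fell by 2.06 and 1.98. The cytosolic G6pdx, Pgd and Taldo1 fell by 0.52, 0.98 and 0.91 in WT and by 0.65, 0.90 and 0.74 in KO. Among 9 other genes of pyruvate entry, 3 rose and 4 fell in both genotypes. The kinase Pdk2 fell by 2.40 and 2.10, while Pdp2, a phosphatase that switches pyruvate dehydrogenase on, rose by 1.65 and 1.41, and Dld, the lipoamide dehydrogenase of the complex, rose by 0.55 and 0.65. Of 15 other enzymes and carriers linked to the cycle, 4 rose and 6 fell in WT and 5 rose and 7 fell in KO. Acod1, which makes itaconate, rose by 0.82 and 0.52. Me1, the cytosolic malic enzyme, fell by 1.19 and 0.90. D2hgdh, which oxidizes the D form of 2-hydroxyglutarate, fell by 1.19 and 1.32.

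Of the 7 regulators of HIF measured, 5 fell in both genotypes, when 31.0% and 32.0% of all genes fell, and the others were not called. Egln1 and Egln3, prolyl hydroxylases that mark HIF for breakdown, fell by 0.49 and 1.59 in WT and by 0.47 and 1.32 in KO, and Egln2, of the same family, by 0.21 and 0.31. Epas1, which encodes HIF-2α, fell by 0.49 and 0.60. Known HIF targets outside glycolysis split. Of 15 measured, Egln3 among them, 5 rose and 6 fell in WT and 7 rose and 5 fell in KO. Adm, the vasodilator adrenomedullin, rose by 1.91 and 1.61, Ndrg1 by 1.59 and 1.54, and Ddit4, an inhibitor of mTORC1, by 1.72 and 1.74. The mitophagy receptors Bnip3 and Bnip3l, named after their values were seen, fell by 0.97 and 1.00 in WT and by 1.13 and 1.06 in KO.

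**Figure D3:**
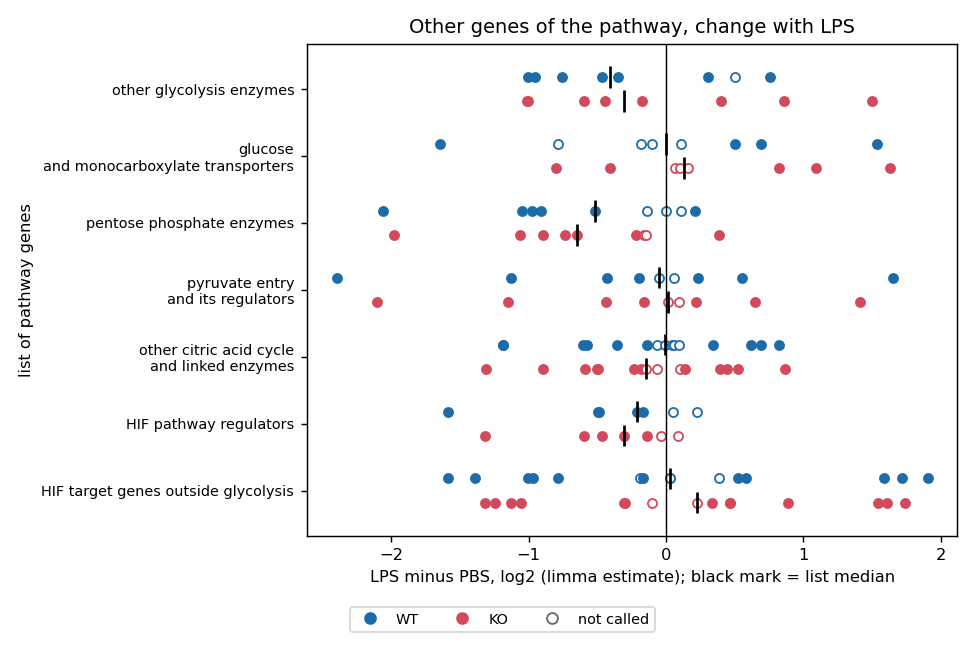
Change with LPS of the genes around the pathway, by list. Each point is a gene's limma estimate of LPS minus PBS on the log2 scale, blue for WT and red for KO, filled where called at an adjusted p below 0.05, and the black mark is the median of the list. The pentose phosphate list has its median at -0.52 in WT and -0.65 in KO, and the HIF targets spread from below -1 to above 1.5.

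Between genotypes without LPS, few members differed and the differences were small. In PBS, 2 of 44 members were higher in KO (4.55%, against 8.06% of all genes) and 2 were lower (4.55%, against 6.05%). Of all genes 14.1% were called in either direction. Of the members called, 0 reached 1.5-fold, and the share of all genes that did was not computed. The median over the members was -0.03, against 0.01 over all genes. Quantile normalization gave 1 higher and 7 lower. Without WT PBS replicate 3 the lower members numbered 6, and without KO PBS replicate 3 the higher ones numbered 4. Leaving out any other array but WT LPS replicate 3 left 1 higher, and 1 lower without WT PBS replicate 1 or 2, WT LPS replicate 2, KO PBS replicate 1 or 2, or KO LPS replicate 3. Pdhb, a subunit of the decarboxylase of pyruvate dehydrogenase, showed the largest difference. It stood at 4.08, 4.04 and 3.80 in WT PBS and 3.42, 3.40 and 3.47 in KO PBS. With LPS it stood at 4.01, 4.10 and 3.82 in WT and 3.5, 3.51 and 3.55 in KO. All 6 KO arrays were below all 6 WT arrays. The difference was -0.55 ± 0.08 in PBS (1.46-fold lower in KO, limma adjusted p = 0.0012). On the arrays of the shared slide it was -0.57 ± 0.10 (adjusted p = 0.018). Pdk1, with the values given above, was called lower in KO (-0.33 ± 0.10, adjusted p = 0.04). The call was lost without any 1 of 7 arrays: the 3 WT PBS arrays, WT LPS replicate 2, KO PBS replicates 1 and 2, or KO LPS replicate 3, and the probe that rose with LPS in KO gave 0.14 ± 0.15.

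Pfkp stood at 3.23, 3.24 and 3.12 in WT PBS and 3.38, 3.45 and 3.58 in KO PBS, and at 3.71, 3.68 and 3.70 in WT LPS and 3.85, 3.78 and 3.80 in KO LPS. It was higher in KO in PBS by 0.27 ± 0.06 (adjusted p = 0.0076), without overlap, and within the shared slide by 0.22 ± 0.05 (adjusted p = 0.04). The call was lost when the 2 PBS groups were fitted alone. Gpi1 stood at 5.22, 5.23 and 5.35 in WT PBS and 5.47, 5.48 and 5.36 in KO PBS, and at 4.83, 4.82 and 4.85 in WT LPS and 4.89, 4.95 and 4.97 in KO LPS. Its PBS groups were separated by a narrow gap. The difference was 0.17 ± 0.05 (limma adjusted p = 0.044), lost without any 1 of 9 arrays, that is all but WT PBS replicate 3, WT LPS replicate 3 and KO PBS replicate 3.

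After LPS, 5 of 44 members were higher in KO (11.4%, against 20.0% of all genes) and 8 were lower (18.2%, against 19.5%). Of all genes 39.5% were called in either direction. Of the members called, 0 reached 1.5-fold, and the share of all genes that did was not computed. The median over the members was -0.05, against -0.01 over all genes. The 2 LPS groups share no slide, so genotype and slide cannot be told apart there except through KO PBS, which spans both. With the slide as a term, 0 of the 13 calls remained (limma), and 5.85% of all genes were called. The count of lower members was 4 without WT LPS replicate 2 and 5 without KO LPS replicate 1 or 3. Aldoc stood at -1.73, -1.59 and -1.62 in WT LPS and -1.10, -1.21 and -0.92 in KO LPS, and at -1.34, -1.43 and -1.05 in WT PBS and -1.41, -1.36 and -1.04 in KO PBS. It was higher in KO after LPS by 0.57 ± 0.13 (adjusted p = 0.0051) and by 0.22 ± 0.19 with the slide term. KO PBS replicate 3, the PBS array of the second slide, stood above its partners for Aldoc. The same array was the highest of KO PBS for Mdh1 and Sucla2. Mdh1 was higher in KO after LPS by 0.35 ± 0.08 (adjusted p = 0.0042) and by 0.06 ± 0.08 with the slide term. A second Mdh1 probe gave -0.09 ± 0.08, and the mean of both was 0.13 (adjusted p = 0.038). Sucla2 was higher by 0.30 ± 0.07 (adjusted p = 0.0047) and by 0.10 ± 0.09 with it. Idh2 was higher in KO after LPS by 0.42 ± 0.09 (adjusted p = 0.0044), and by 0.48 ± 0.17 with the slide term, where its adjusted p was 0.13. Its KO PBS array of the second slide differed by -0.06 from the mean of the others, and its second probe was also higher, by 1.16 ± 0.23, with a mean of both probes of 0.79. Pdha1, the X-linked other subunit of the decarboxylase, was the fifth member called higher, by 0.15. Its call was lost without any 1 of the 6 LPS arrays.

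Among the members lower in KO after LPS, Pdhb again differed by -0.46 ± 0.08 (limma adjusted p = 0.0015), and by -0.52 ± 0.15 with the slide term (adjusted p = 0.067). Hk3 stood at 5.28, 5.42 and 5.05 in WT LPS and 4.77, 4.79 and 4.71 in KO LPS, and at 5.0, 5.16 and 4.45 in WT PBS and 4.94, 4.91 and 4.71 in KO PBS. The LPS groups did not overlap, the difference was -0.50 ± 0.15 (adjusted p = 0.023), and the call was lost without WT LPS replicate 1 or 2 or any 1 KO LPS array. Ldhb stood at -1.19, -1.19 and -0.97 in WT LPS and -1.51, -1.66 and -1.55 in KO LPS, and at -0.91, -1.08 and -0.81 in WT PBS and -1.04, -1.17 and -1.39 in KO PBS. The difference after LPS was -0.45 ± 0.11 (adjusted p = 0.0069), and KO PBS replicate 3 stood below its partners. Suclg2 was lower in KO after LPS by 0.41 (adjusted p = 0.004), a call lost when all probes of the gene were averaged, and its KO PBS replicate 3 was also the lowest of its group. With the slide term the differences of Hk3, Ldhb and Suclg2 were -0.28, -0.17 and -0.11. The other members called lower were Pfkl (-0.35), Pkm (-0.38), Tpi1 (-0.16) and Ogdh (-0.13). Pkm was lost without WT LPS replicate 1 or 2, Tpi1 without either of those or KO LPS replicate 1 or 3, and Ogdh with quantile normalization (-0.09) and without any 1 LPS array other than WT LPS replicate 1. Tpi1 was also lost with normexp correction (-0.10, adjusted p = 0.11) and with the mean of all probes (-0.10, adjusted p = 0.24), and its other 2 probes gave -0.05 ± 0.08 and -0.08 ± 0.09. Pfkfb3 was not called (-0.39 ± 0.20), but its second probe was called lower in KO (-0.59 ± 0.16, limma adjusted p = 0.014), as was the mean of its probes. Pdk1 was not called either (-0.24 ± 0.10), while the probe that rose with LPS in KO was called higher there (0.66 ± 0.15, adjusted p = 0.0052). These fits had no slide term.

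**Figure D4:**
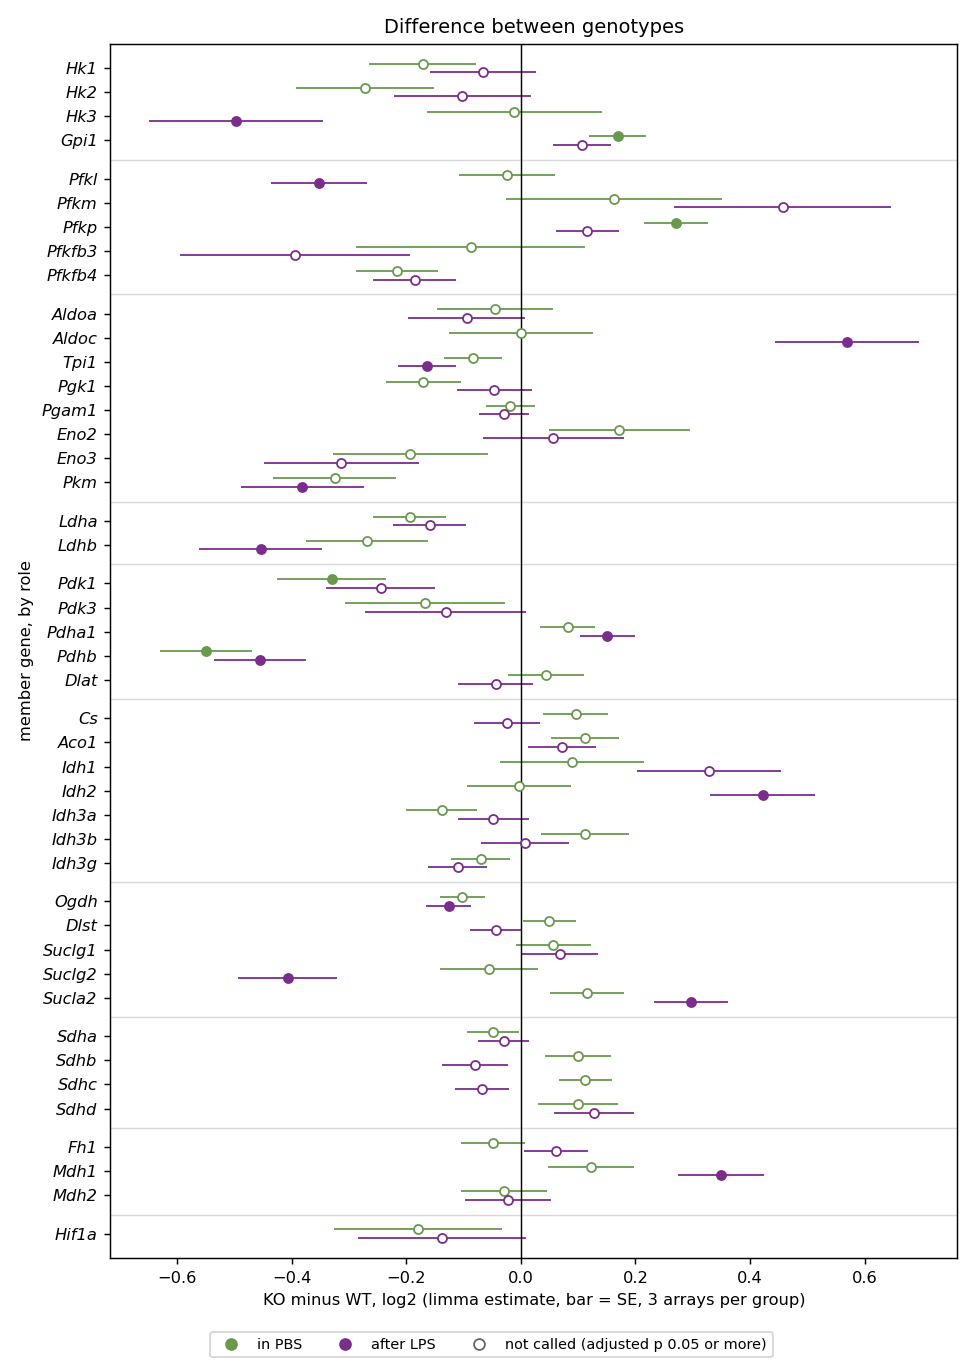
Difference between genotypes of the 44 members, ordered by role. Each point is the limma estimate of KO minus WT on the log2 scale with its SE (3 arrays per group), green in PBS and purple after LPS, filled where called at an adjusted p below 0.05. Pdhb is the one member called lower in both conditions, and the axis spans a range far narrower than that of the changes with LPS.

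**Figure D5:**
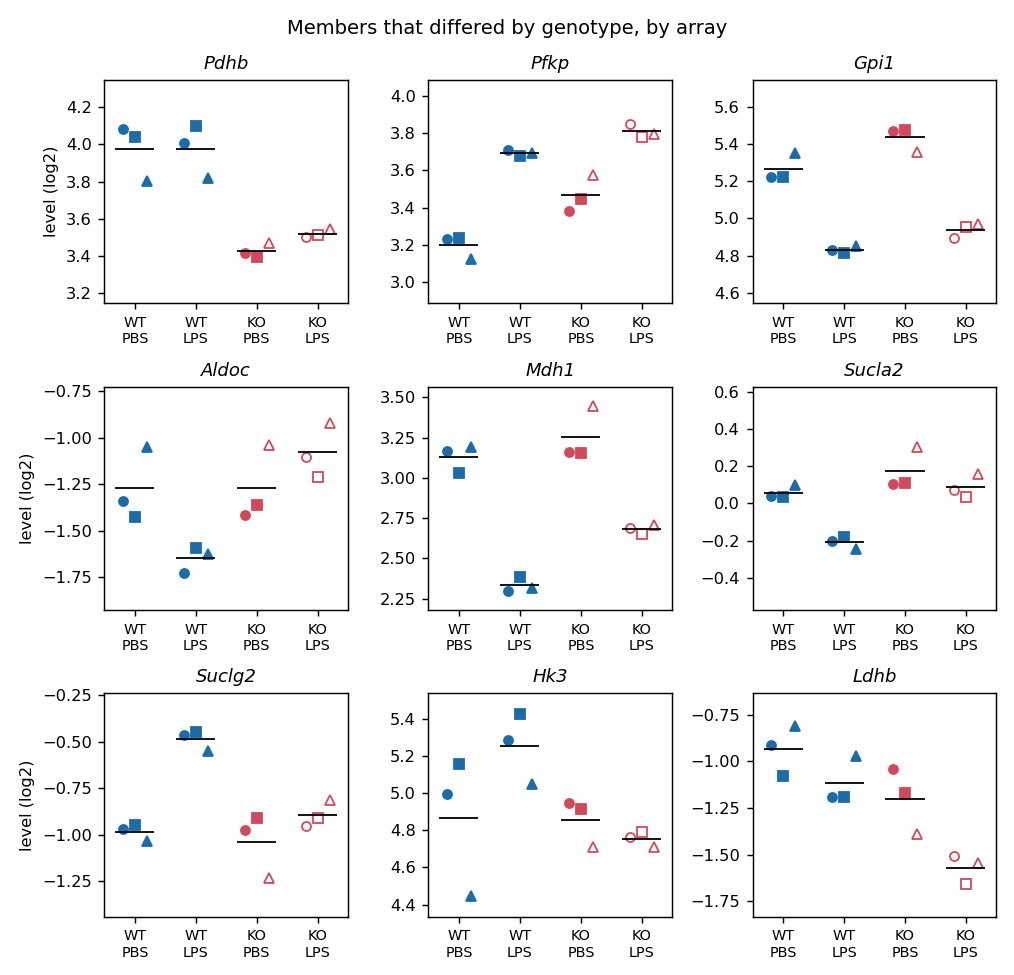
Levels of 9 members that differed by genotype on each of the 12 arrays, as log2 of the signal relative to the array's 75th percentile. Blue is WT and red is KO. Circles, squares and triangles are replicates 1, 2 and 3, open symbols are arrays of the second slide, and lines are group means. Pdhb is lower on all KO arrays, and KO PBS replicate 3 (open triangle) stands apart from its 2 partners for Aldoc, Mdh1, Sucla2, Suclg2 and Ldhb.

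Whether LPS changed the members differently in KO was tested as the interaction of genotype and LPS. By limma 0 of 44 members were called, against 4.31% of all genes (0.926% higher and 3.39% lower). At unadjusted p below 0.05 there were 7 members, 2 higher and 5 lower in KO, against 20.7% of all genes. The smallest adjusted p belonged to Idh2, whose fall was less deep in KO by 0.43 ± 0.13 (adjusted p = 0.093). Next came Aldoc at 0.57 ± 0.18 (adjusted p = 0.1), Suclg2 at -0.35 ± 0.12 and Pfkl at -0.33 ± 0.12. The KO LPS arrays share their slide with KO PBS replicate 3 alone, so a slide difference also enters these values. That PBS array differed from the mean of its partners by 0.35 for Aldoc, -0.29 for Suclg2, -0.23 for Pfkl and -0.06 for Idh2. With the slide as a term 0 members were called, when 2.96% of all genes were. The other Suclg2 probes gave -0.31 ± 0.22 and 0.03 ± 0.24. Hif1a gave 0.04 ± 0.21, Hk2 0.17 ± 0.17 and Pfkfb3 -0.31 ± 0.28, none of which passed the test. A value that misses the threshold does not show that the genotypes responded alike. One array decided the count. Without KO PBS replicate 3, 3 members were called higher and 5 lower, when 21.1% of all genes were called. These were Aldoc (0.69), Mdh1 (0.32) and Sucla2 (0.25), and Pfkl (-0.40), Suclg2 (-0.45), Cs (-0.19), Sdhb (-0.23) and Sdhc (-0.22). Leaving that array out puts the KO groups on different slides, so slide and LPS then cannot be told apart in KO. Of the genes around the pathway, 3 had a called interaction and are named for that. The fall of Pfkfb2 was less deep in KO (0.36 ± 0.08, adjusted p = 0.018), the rise of Slc2a6 was smaller (-0.53 ± 0.11, adjusted p = 0.019), and Ero1a, an oxidase of the endoplasmic reticulum, gave 0.30 ± 0.07 (adjusted p = 0.026). How far these 3 values depend on the slide or on single arrays was not examined.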

How the data were processed

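Total RNA of 12 samples was labelled with Cy3, per the labels' protocols, and read on 1-colour Agilent arrays. Spot intensity, background and quality flags were deposited, as written by Agilent Feature Extraction (version 11.5.1.1 per the submitters' processing notes). The scanner software subtracted background and a spatial trend to give the processed signal, per the file headers. Groups and replicate numbers came from the sample titles.

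From the log2 of that signal each array's own 75th percentile over non-control spots was subtracted, after which a value of 0 is the level of that percentile. Marked spots were left out and spots of a probe averaged. Probes were named through their RefSeq accession with a gene table of GRCm38.p6, which gave a symbol to 32989 of 56605 probes. Probes well above background on the 3 arrays of 1 or more groups were kept, and the brightest kept probe stood for each of 13280 genes. Between 48.8% and 57.1% of non-control spots per array were well above background and 0 spots were saturated. The number of arrays limits the precision.

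Changes were estimated in R 4.3.3 with limma 3.58.1, with 1 mean per group over 12 arrays, a trended prior, two-sided tests and Benjamini-Hochberg adjustment over all genes. Members were called at an adjusted p below 0.05, and the steps were tested on simulated data. Members and gene lists were chosen with earlier results of these data known. Values per array are given for the 4 called members with the largest rise and the 4 with the largest fall in each comparison of groups, and for Hif1a. Other genes are named by list, up to 3 called genes with the smallest p in each LPS comparison.

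Replicate numbers are shared by all groups. Residuals of equal numbers correlated at 0.105, 0.371 and 0.481 between WT PBS and WT LPS, over 0.1 in each pair, so the number was taken to pair the WT samples, and blocked values are printed beside WT results where they change the call. In KO the correlations were 0.04, 0.11 and 0.08, not over 0.1 in each pair, and between genotypes -0.10 to 0.02, so no pairing was taken there. Among the PBS arrays, the equal number was the best match of all 3 KO LPS arrays and of WT LPS replicates 2 and 3, but not of WT LPS replicate 1. Alternatives were the background correction, normalization, probe filter, probe choice, moderation, samples in the fit, slide, replicate block and each array left out.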

Additional observations from a re-analysis of the deposited data

How the results depend on the processing

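The changes with LPS of Hk2, Pfkfb3, Pfkfb4, Idh1, Idh2, Idh3a and Hif1a in both genotypes, of Pdk1 in WT and of Pfkl in KO kept call and direction in all 23 alternatives. The LPS calls lost in 1 or more alternatives were those of Hk3, Pfkm, Aldoc, Ogdh and Sdhc in WT. In KO they were those of Pgk1, Ldha, Ldhb, Cs, Idh3b and Ogdh. Beside the losses given above, Hk3 and Ogdh in WT and Ldha in KO were lost without the probe filter or without the trend. Hk3 and Ogdh in WT were also lost with only the groups compared. Hk3 was lost with the mean of all probes and on 1 slide, and Ogdh with median centring. In PBS, Gpi1 lost its call between genotypes in 15 of 23 alternatives and Pdk1 in 11. Only 1 called change turned sign, that of Ldha in KO (-0.03 with quantile normalization). Quantile normalization also moved called changes of Gpi1, Pgk1, Idh3g, Sdhc and Fh1 in WT (-0.68, -0.68, -0.39, -0.24 and -0.31), of Pfkp (0.32 in WT and 0.23 in KO), of Pgk1 and Cs in KO (-0.47 and -0.40) and of Ogdh (-0.30 and -0.24) by over 1.5 times, and normexp correction those of Aldoc in WT (-0.25), Ldhb in KO (-0.24) and Sucla2 between genotypes after LPS (0.19). Quantile normalization raised the falls with LPS in WT to 29, with 17 among pyruvate dehydrogenase and the cycle, and its called differences in PBS were 1 higher and 7 lower. For rises with LPS among pyruvate dehydrogenase and the cycle, WT gave 6 with median centring, 5 with the mean of all probes and 5 with the slide as a term, and KO gave 4 with the mean of all probes and 4 on the arrays of 1 slide. With the replicate number as a block, this count was 5 in WT, 0 members were higher and 0 lower between genotypes in PBS, where the numbers do not pair the samples (Pdhb -0.55, adjusted p = 0.066 by limma), and 1 interaction was called higher (Aldoc); the block moved no other count by more than 1.5 times. The 2 higher members in PBS were 1 without the probe filter, with the mean of all probes or without the trend, 0 with only the groups compared and 4 with the slide as a term. The 2 lower ones were 1 without the probe filter and 1 with only the groups compared. After LPS the slide as a term left 0 higher and 0 lower. The normexp correction, chosen after the data were seen because the files hold median and not mean spot signals, called 1 interaction higher (Idh2).

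With 1 array left out, rises with LPS ran from 7 to 11 in WT and 6 to 8 in KO and falls from 16 to 21 and 17 to 22. For glycolysis, rises ran from 3 to 4 in both genotypes and falls from 7 to 9 in WT and 8 to 10 in KO. For pyruvate dehydrogenase and the cycle, rises ran from 3 to 6 in WT and 2 to 3 in KO, and falls from 8 to 12 and 9 to 12. Differences between genotypes ran from 1 to 4 higher and 1 to 6 lower in PBS and from 4 to 6 higher and 4 to 11 lower after LPS, and interactions from 0 to 3 higher and 0 to 5 lower. A fit on 1 slide was not possible for the LPS groups of both genotypes.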
